A study of Drosophila melanogaster with 5 samples.

Results

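In the cephalic complexes of Drosophila larvae, 49 genes that carry only a CG number as their symbol were higher in all lgl mutant arrays than in all control arrays. A CG number is the computed-gene identifier that a Drosophila gene keeps until it is named after a phenotype, a protein family or a relative. The genes were selected on the expression values themselves: for each of 5209 CG-numbered genes, the probe set with the highest mean over the 5 arrays was taken, and the gene was kept when its lowest lgl value lay at least 1 above its highest control value on the log2 scale, a step called the gap in what follows. The 49 genes were 0.941% of the CG-numbered genes measured, and among the 6773 genes with another kind of symbol the same gap was met by 75, or 1.11%. Because this contrast chose the genes, their values in it are a description, and so are the limma calls counted for them further on, from which nothing is read.

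The cephalic complex is the larval brain with the attached eye-antennal imaginal discs. The mutant larvae were lgl27S3/lglE2S31, an lgl-null combination, taken as 3rd instar larvae at day 4 (3 arrays). The controls were FRT82B 3rd instar larvae at day 0 (2 arrays), labelled as wild type, and a further FRT82B sample that the submitters set aside for quality reasons was not analysed here. Each array carried RNA pooled from 20 pairs of complexes, and the labels call the arrays biological replicates. Wild-type larvae pupate before day 4, so genotype and age changed together and their parts cannot be told apart. In pooled tissue, a larger share of cells expressing a gene and more RNA per cell cannot be told apart either.

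The lethal giant larvae gene, l(2)gl, encodes a cortical protein that keeps epithelial cells and neuroblasts polarised, and in its absence the brain and the imaginal discs overgrow while the larva fails to pupate. Genes known only by number have mostly not been picked up by mutant screens, and many are recognised only from a protein domain such as a protease, a transporter or a dehydrogenase fold. In late larvae the fat body, the haemolymph cells and the salivary glands make large amounts of secreted proteins, and these tissues lie close to the brain and discs at dissection.

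The l(2)gl probe set read 2.44, 2.40 and 2.24 in the lgl arrays, against 7.74 and 6.74 in the FRT82B arrays, so every array matched its label. The fixed neuroblast list (dpn, wor, mira and ase), summed on the linear scale and given as log2, lay at 11.89 to 12.06 in the lgl arrays and at 10.49 to 10.56 in the FRT82B arrays. Of its 4 genes 1 passed the gap. The difference was 2.54 for mira, 1.20 for dpn, 1.00 for wor and 0.15 for ase. Summed neuron markers lay at 9.29 to 9.83 in the lgl arrays, against 9.73 and 10.53, and summed eye-antennal disc markers at 9.14 to 9.31, against 8.50 and 9.61. Of the disc genes, ato was lower in the lgl arrays by the same gap, with a difference of -1.47. The other disc genes had differences of 0.11 to 0.69. Summed haemocyte markers lay at 9.43 to 10.18 in the lgl arrays and at 8.53 to 8.56 in the FRT82B arrays. Of the 8 haemocyte genes 3 passed the gap, while He and Hml, with differences of -0.08 and 0.96, overlapped the controls. Summed ring gland markers lay at 6.63 to 7.66 in the lgl arrays, against 10.22 to 10.54. Summed trachea markers lay at 10.30 to 10.65, against 10.10 and 9.64, with 2 of the 5 genes measured past the gap. The trachea genes were split, with differences of 2.77 for serp, 2.64 for verm and 0.74 for Gasp, but -0.18 for btl and -0.54 for Idgf6. Summed glia markers lay at 10.30 to 10.52 in the lgl arrays, against 11.80 and 11.10, but the genes of that list did not move together. The difference was -2.01 for Gs2 and -0.83 for nrv2, while repo went the other way at 0.78. Summed muscle markers lay at 5.80 to 6.10 in the lgl arrays, against 7.89 and 6.64. The part of these tissues in the values of the 49 genes was not tested. The 3 lgl arrays correlated with each other at r = 0.9952 to 0.9968 across probe sets and the 2 FRT82B arrays at 0.9809, and FRT82B array 2 correlated with the lgl arrays at 0.982 to 0.9842, above its correlation with the other control.

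Among the 49 genes the difference of group means, lgl minus FRT82B, ranged from 1.24 to 4.84 with a median of 2.04 on the log2 scale, or 2.36-fold to 28.7-fold with a median of 4.12-fold. The median difference was -0.04 over all CG-numbered genes and -0.03 over all 11982 genes named by one symbol. Of the 49 genes, 45 had a difference of at least 1.5, 25 of at least 2, 9 of at least 3 and 2 of at least 4. The gap between the groups ranged from 1.01 to 3.41 with a median of 1.51, was at least 2 in 9 genes and was under 1.5 in 23. The median level of the 49 genes was 6.67, 6.78 and 6.90 in the lgl arrays, against 4.41 and 4.67 in the FRT82B arrays. In 11 of the 49 genes both FRT82B values lay below the median of their array, and in 18 at least 1 did. CG14265, the gene with the 28.7-fold difference, was among the 11. The fold sizes of such genes rest on low control values.

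**Figure D1:**
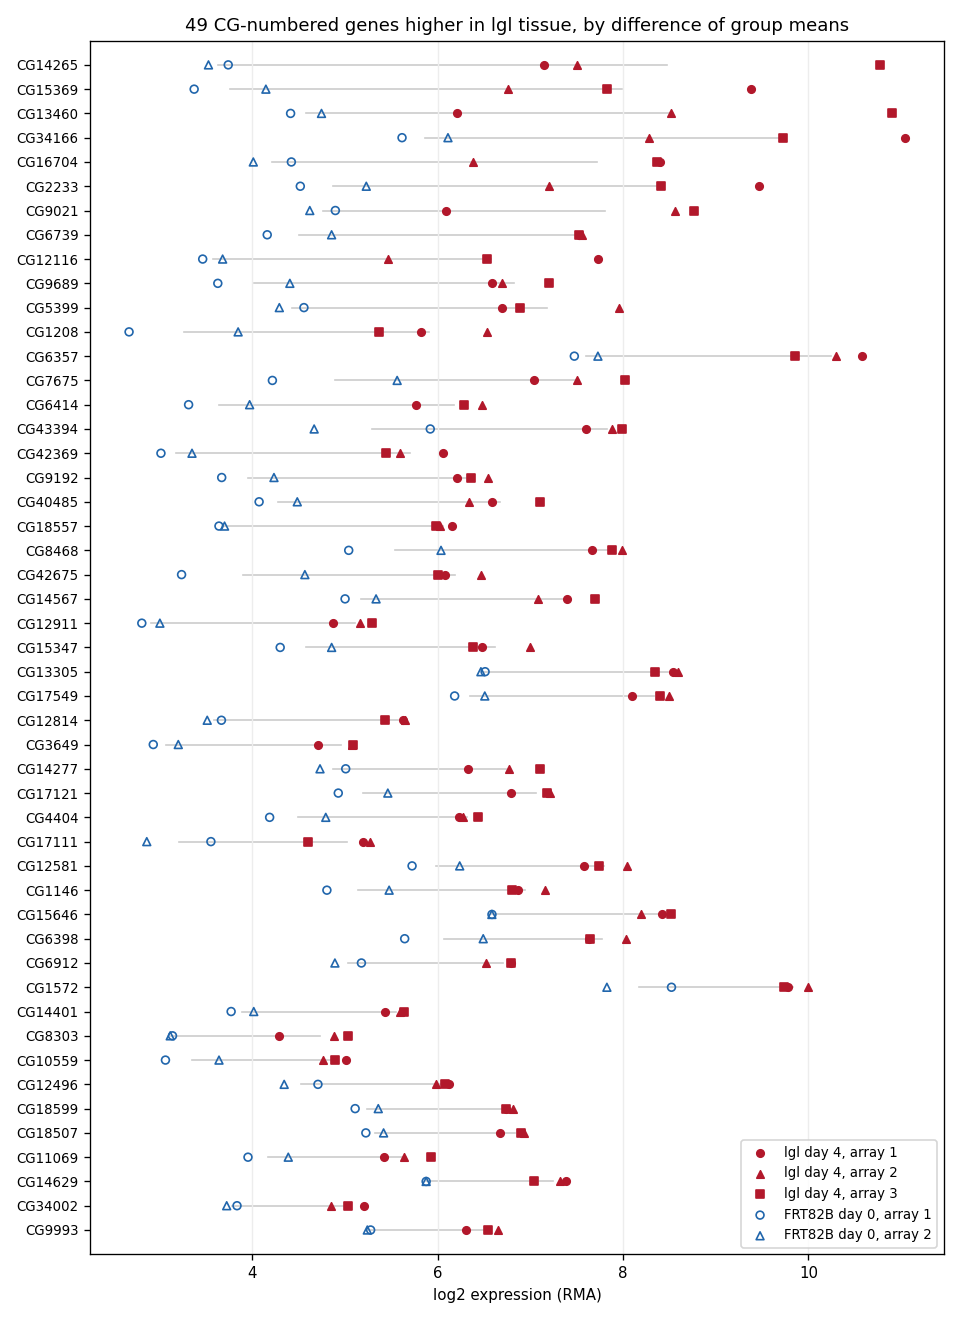
Log2 expression (RMA) of the 49 genes on every array, ordered from the largest difference of group means at the top. Filled red symbols are the 3 lgl day 4 arrays, open blue symbols the 2 FRT82B day 0 arrays, and grey lines join the group means. The group means lie between 1.24 and 4.84 apart, and the lgl arrays of several genes at the top spread over more than 2.

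In a limma fit over all 18769 transcript probe sets, 102 probe sets (0.543%) were called higher in the lgl arrays at a Benjamini-Hochberg adjusted p under 0.05 and a log2 difference of at least 1. Of the 49 genes, 26 were called and 23 were not, a count that the choice of the genes on the same contrast largely fixes. None of the 8 genes whose lgl arrays ranged over at least 2 was called, and all 26 calls lay among the other 41 genes. None of the 4 genes whose FRT82B arrays differed by at least 1 was called either. Since limma sets a difference against the spread inside the groups, these counts follow largely from the method, and nothing is read from them. All 49 had an unadjusted limma p under 0.05, which the selection on the same values largely fixes. Of all 18769 probe sets, 373 were higher in the lgl arrays at such a p with a log2 difference of at least 1. Without any one of the 3 lgl arrays limma called 0 of the 49, while 47 to 49 had an unadjusted p under 0.05, without FRT82B array 1 there were 4 calls, and without FRT82B array 2 there were 37.

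The 10 largest differences fell into those in which the lgl arrays stood far apart and those in which they did not. CG14265 had the largest difference of the 49, and its product is not named in the annotation used. It read 7.15, 7.51 and 10.78 in the lgl arrays, against 3.74 and 3.53 in the FRT82B arrays. It averaged 8.48 ± 2.00 (SD, n = 3) in lgl tissue and 3.64 ± 0.15 (SD, n = 2) in FRT82B tissue, a difference of 4.84, and its gap of 3.41 was also the largest. The lowest lgl array was therefore far above both controls, while lgl array 3 stood well above the other lgl arrays. CG6739 was the opposite case, with 7.53, 7.55 and 7.52 in the lgl arrays, against 4.16 and 4.86 in the FRT82B arrays, a difference of 3.03. Its 3 lgl values spanned only 0.03, and its gap of 2.67 was the next largest after that of CG14265. CG9689 read 6.59, 6.69 and 7.20 in the lgl arrays, against 3.63 and 4.41, a difference of 2.81. These were the only 2 of the 10 genes with the largest differences, CG6739 and CG9689, whose lgl arrays ranged over less than 2.

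A pair of patterns accounted for the other 8 genes. Their lgl arrays ranged over at least 2, which held for 8 of the 49 genes (16.3%) and for 41 of all 11982 named genes (0.342%). Among the other 41 members the lgl range was at most 1.26, with a median of 0.38, and 28 of the 49 had an lgl range under 0.5. The median lgl range was 0.42 over the 49 genes and 0.17 over all named genes. These comparisons are not matched for level, since the selection favours genes that are bright in the lgl arrays. None of the 49 had an lgl array below the median of that array, so nothing is read from the shares. All 8 genes of wide lgl range had a difference of at least 3.

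In the first pattern, lgl array 1 was highest and lgl array 2 lowest. CG34166 read 11.04, 8.28 and 9.73 in the lgl arrays, against 5.62 and 6.11 in the FRT82B arrays, a difference of 3.82. CG15369, which encodes a cystatin-like inhibitor of cysteine proteases, read 9.38, 6.76 and 7.82, against 3.37 and 4.15, a difference of 4.23. CG2233 read 9.46, 7.20 and 8.41 in the lgl arrays, against 4.52 and 5.23 in the FRT82B arrays. In each of these genes the lowest lgl array still lay more than 1.9 above the higher control. CG12116, a sepiapterin reductase-like short-chain dehydrogenase, read 7.73, 5.47 and 6.53, against 3.47 and 3.68, a difference of 3.00. CG16704, a Kunitz-type serine protease inhibitor, read 8.40, 6.38 and 8.37 in the lgl arrays, against 4.42 and 4.01, so that lgl arrays 1 and 3 were level and only array 2 was low.

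The summed fat body list took the same array order, which among its members was that of Lsp2 alone. Of its 7 genes 4 were measured, and their summed level was 12.02, 9.22 and 11.17 in the lgl arrays, against 7.46 and 8.52 in the FRT82B arrays. Most of that sum came from Lsp2, a larval serum storage protein made by the fat body, at 11.83, 8.86 and 10.97 in the lgl arrays, against 6.78 and 7.69. Fbp1, the receptor through which the fat body takes storage protein back up, read 8.53, 5.54 and 5.34, against 4.08 and 6.51, and was lowest on lgl array 3. Fbp2 read 7.17, 6.29 and 8.01, against 5.4 and 5.96, and was highest on lgl array 3, and the yolk protein gene Yp1 stayed between 2.63 and 2.97 on every array. The part of fat body RNA in the values of these 5 genes was not tested. As a description over 5 arrays that share the shift between the groups, and among the 380 genes that ranged over at least 2, the genes whose profile was most like that of CG34166 were CG12116 (Pearson r = 0.999), CG2233 (0.998), CG15369 (0.996), the odorant-binding protein gene Obp99c (0.990) and Lsp2 (0.988).

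In the second pattern, lgl array 3 was highest and lgl array 1 lowest. CG13460 read 6.21, 8.52 and 10.90 in the lgl arrays, against 4.41 and 4.75 in the FRT82B arrays, a difference of 3.96 with a gap of 1.47. CG9021 read 6.09, 8.56 and 8.77, against 4.90 and 4.62, and here lgl arrays 2 and 3 lay close together. CG14265, given above, was the third gene with this order. Its nearest protein-coding gene without overlap is ng2, one of the new-glue genes, which encode secreted proteins of the larval salivary gland. ng2 itself read 3.11, 3.26 and 4.74 in the lgl arrays, against 3.52 and 4.73 in the FRT82B arrays, with the same order among the lgl arrays but no separation of the groups. Some salivary gland genes outside the fixed list, picked after values were seen, also had lgl array 3 highest and array 1 lowest. ng3 read 5.56, 5.92 and 8.75, against 3.59 and 6.0, ng1 read 2.94, 4.02 and 5.69, against 2.94 and 4.33, and Pig1 read 3.35, 3.81 and 6.05, against 3.21 and 3.24. The summed salivary gland list, measured for all 6 of its Sgs glue genes, was 7.03, 6.53 and 7.38 in the lgl arrays, against 6.90 and 8.61, so the sum was highest in a control and lowest among the lgl arrays on array 2. Within the list, Sgs7 (4.62, 4.63 and 5.61, against 5.22 and 7.57) and Sgs8 (3.47, 3.82 and 4.13, against 4.17 and 6.29) had the lgl array order of CG13460. Sgs3 (4.29, 3.34 and 4.45, against 4.05 and 5.77) and Sgs4 (4.85, 3.82 and 4.82, against 4.08 and 4.50) did not, and were lowest on lgl array 2. So was Sgs5, at 5.21, 4.30 and 5.30, against 4.32 and 5.14. Sgs1 stayed between 3.31 and 3.37 on every array. The part of salivary gland RNA in the values of CG13460, CG9021 and CG14265 was not tested. The gene profiles most like that of CG13460 were CG14265 (Pearson r = 0.959), CG9021 (0.958), CG43117 (0.949), Jig (0.945), CG14852 (0.942), CG14277 (0.915), Pig1 (0.905) and CG7675 (0.883), again as a description over 5 arrays. Of the 41 named genes with an lgl range of at least 2, 26 were highest on lgl array 3, 14 on lgl array 1 and 1 on lgl array 2, and 3, 5 and 0 of these were among the 49 genes.

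**Figure D2:**
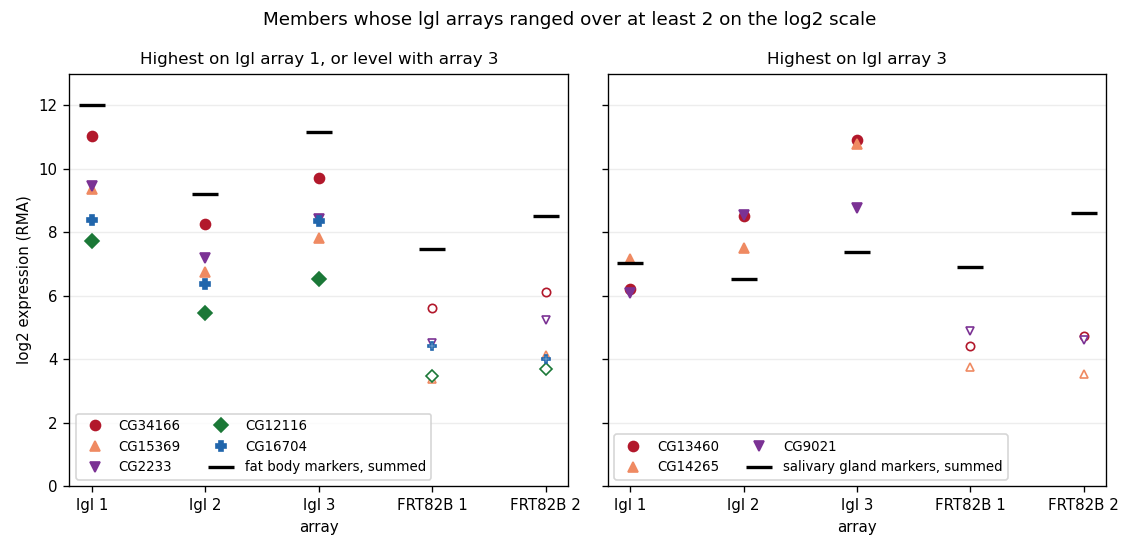
Log2 expression (RMA) on each array of the 8 genes whose lgl arrays ranged over at least 2, with filled symbols for lgl and open symbols for FRT82B arrays. Black bars are the summed fat body markers (left) and the summed salivary gland markers (right). The left genes and the fat body sum are lowest among lgl arrays on array 2, and the right genes are lowest on array 1, while the salivary gland sum is lowest on array 2.

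By encoded product, 18 of the 49 genes could be placed in a class and 31 could not. The names in the reference tables gave a class to 2 genes, and the other 16 were placed from the protein domains they are known to encode, after their values had been seen, so the class counts are a description only. The proteases and protease inhibitors (4 genes) had the highest median difference, 3.07, with a range of 2.38 to 4.23. The short-chain dehydrogenases (4 genes) had a median of 2.51, the membrane transporters (4 genes) 2.10, the lipid enzymes and lipid carriers (4 genes) 2.07 and the DNA-binding proteins (2 genes) 1.68. The 31 genes without a class had a median of 1.98 and covered the widest range, 1.25 to 4.84.

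**Figure D3:**
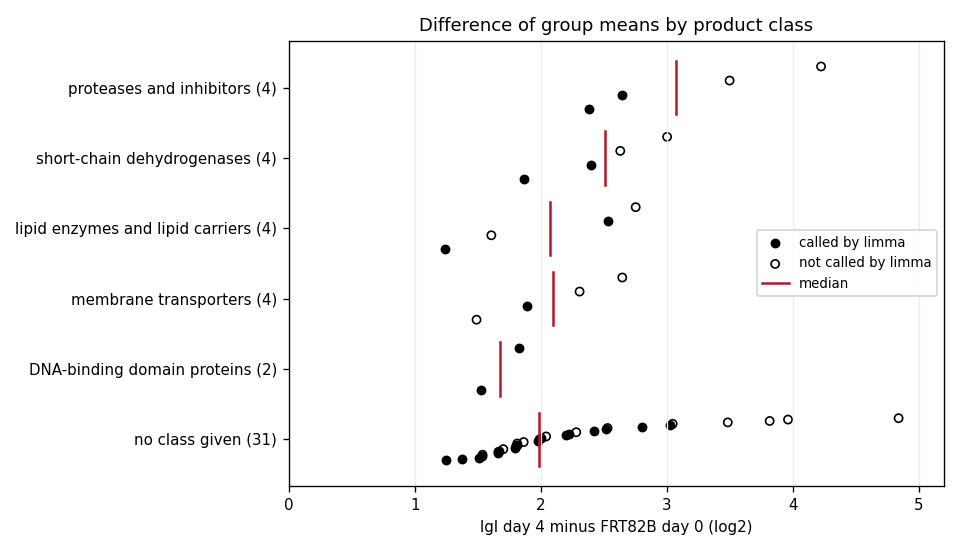
Difference of group means, lgl day 4 minus FRT82B day 0 on the log2 scale, for the 49 genes by product class, with the number of genes in each class in brackets. Filled points were called by limma over all probe sets, open points were not, and red lines are class medians, from 1.68 for the DNA-binding proteins to 3.07 for the proteases and inhibitors.

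Among the proteases, CG18557 had the smallest standard error of the 49 genes in the limma fit, 0.0785. It encodes a clip-domain serine protease homologue, a secreted protein of the family that takes part in haemolymph protease cascades. It read 6.16, 6.03 and 5.98 in the lgl arrays, against 3.64 and 3.70 in the FRT82B arrays, and averaged 6.06 ± 0.09 (SD, n = 3) in lgl and 3.67 ± 0.04 (SD, n = 2) in FRT82B tissue, a difference of 2.38. Both groups were narrow and lay far apart, but both FRT82B values lay below the medians of their arrays, 3.86 and 3.84. CG6357, a cysteine protease of the papain family, read 10.57, 10.30 and 9.86 in the lgl arrays, against 7.47 and 7.73, a difference of 2.64. The remaining 2 genes of this class were the inhibitors CG15369 and CG16704, both with the wide lgl spread described above. The lgl range was 0.17 in CG18557 and 0.72 in CG6357.

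The short-chain dehydrogenases are NAD(P)-dependent enzymes that oxidise or reduce alcohols, aldehydes and ketones. CG40485, annotated with the synonym FOHSDR, read 6.59, 6.34 and 7.10 in the lgl arrays, against 4.08 and 4.49 in the FRT82B arrays, a difference of 2.39. Its other probe set gave 5.74, 5.51 and 6.36, against 2.73 and 3.12, a difference of 2.95, so both probe sets separated the groups. CG7675, a retinol dehydrogenase-like member, read 7.04, 7.50 and 8.02 in the lgl arrays, against 4.22 and 5.56, and the distance between its controls was the largest of the 49 genes. CG17121 read 6.79, 7.21 and 7.18, against 4.93 and 5.46, a difference of 1.86. CG12116 made up the fourth member of the class.

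The lipid class joined 3 enzymes and 1 carrier. CG5399, a lipocalin, which is a secreted carrier of small hydrophobic molecules, read 6.70, 7.95 and 6.89 in the lgl arrays, against 4.56 and 4.29 in the FRT82B arrays, a difference of 2.75 with lgl array 2 highest. The carboxylesterase CG6414 read 5.77, 6.47 and 6.29, against 3.31 and 3.97, a difference of 2.53. The fatty acyl-CoA reductase CG8303, of the family that makes fatty alcohols, read 4.29, 4.88 and 5.04, against 3.14 and 3.12. CG9993, a ligase that activates long-chain fatty acids with coenzyme A, had the smallest difference of the 49 genes, 1.24, and read 6.31, 6.65 and 6.55, against 5.28 and 5.24. The groups of CG8303 and CG9993 were separated by little more than the threshold, while those of CG5399 stood 2.14 apart.

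Of the membrane transporters, CG1208 is a sugar transporter of the major facilitator superfamily and read 5.83, 6.53 and 5.36 in the lgl arrays, against 2.67 and 3.85 in the FRT82B arrays, a difference of 2.65. CG8468, of the monocarboxylate transporter type, read 7.67, 7.99 and 7.88, against 5.04 and 6.04, a difference of 2.31. In both, the controls differed by about as much as the gap that the selection required. CG3649, an anion transporter of the SLC17 type, read 4.71, 5.08 and 5.09, against 2.93 and 3.20, and was the transporter that limma called. CG11069, an ABC transporter of the G subfamily, read 5.43, 5.63 and 5.92, against 3.96 and 4.39, with a gap of 1.04. The DNA-binding proteins had narrower lgl arrays than the transporters, although the controls of CG4404 lay further apart than those of CG3649 and CG11069. CG18599, a homeodomain protein, read 6.74, 6.81 and 6.73 in the lgl arrays, against 5.11 and 5.36, a difference of 1.53, and CG4404, with a MADF domain, read 6.24, 6.28 and 6.44, against 4.19 and 4.79, a difference of 1.83.

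Among the 31 genes without a class, CG42369 and CG9192 had large gaps beside those already described. CG42369 read 6.06, 5.59 and 5.45 in the lgl arrays, against 3.02 and 3.35 in the FRT82B arrays, a difference of 2.52. CG9192 read 6.21, 6.55 and 6.36, against 3.67 and 4.24, a difference of 2.42. Their gaps were 2.10 and 1.97, beside 2.28 and 2.13 for the proteases CG18557 and CG6357. A further 12 genes of this kind had differences between 1.37 and 2.20 with a median of 1.68, gaps between 1.12 and 1.87, and lgl ranges of at most 0.77. They were CG12911, CG14277, CG12581, CG1146, CG15646, CG6398, CG6912, CG1572, CG14401, CG10559, CG12496 and CG14629, and 7 of them were called by limma.

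The edge of the selection cut through a run of close values. Just inside it lay CG34002 with a gap of 1.01, CG9993 with 1.03 and CG11069 with 1.04. CG34002 read 5.21, 4.85 and 5.03 in the lgl arrays, against 3.84 and 3.73 in the FRT82B arrays. Just outside lay CG3704, CG4199 and CG5835, each with a gap of 0.98. CG5835 read 5.39, 5.69 and 5.53 in the lgl arrays, against 3.02 and 4.41, a difference of 1.82 that was larger than those of the 3 genes just inside, and only its higher control kept it out.

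The size of the change hung in part on which control was used. FRT82B array 2 was above FRT82B array 1 in 32 of the 49 genes (65.3%), while it was so in 38.6% of all CG-numbered genes, and the median distance, array 2 minus array 1, was 0.27 over the 49 and -0.04 over all CG-numbered genes. These comparisons are not matched for level, and the selection used both controls, so nothing is read from them about the 49 genes. The median difference of the 49 was 2.15 against FRT82B array 1 alone and 2.01 against FRT82B array 2 alone. The controls of CG7675 differed by 1.35, those of CG42675 by 1.33, those of CG1208 by 1.18 and those of CG8468 by just under 1, each with array 2 higher. CG43394 was the exception among the 5 widest, with 7.61, 7.88 and 7.99 in the lgl arrays, against 5.92 and 4.67 in the FRT82B arrays, so that array 1 was higher. In the control probe sets for RNA quality, the 3′ minus 5′ difference of actin was 0.35 to 0.58 in the lgl arrays and 0.71 to 0.73 in the FRT82B arrays. That of eIF-4a was 1.41 to 1.65, against 1.68 and 2.01, and that of GAPDH overlapped at 1.18 to 1.36, against 1.21 and 1.37. The part of RNA quality in these values was not tested.

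**Figure D4:**
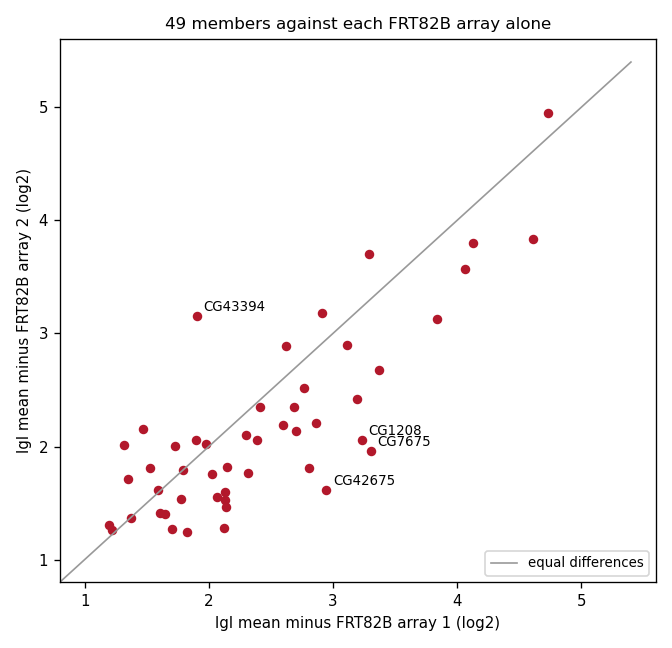
Lgl mean minus FRT82B array 1 (horizontal axis, log2) and lgl mean minus FRT82B array 2 (vertical axis, log2) for the 49 genes, with the line of equal differences. More points lie below the line than above it, since array 2 was the higher control in 32 of the 49 genes, and the labelled genes are those whose controls differed by at least 1.

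For 5 of the 49 genes the array carried more than one probe set, and the others did not always follow. The probe set of CG42675 that met the selection read 6.08, 6.47 and 6.01 in the lgl arrays, against 3.24 and 4.57 in the FRT82B arrays, while its other probe set stayed between 2.71 and 2.87 on all 5 arrays, a difference of 0.10. The other probe set of CG43394 read 3.65, 3.65 and 3.72, against 3.87 and 3.62, a difference of -0.07. CG12814 read 5.62, 5.65 and 5.43 in the lgl arrays, against 3.67 and 3.52, but 3.78, 3.56 and 3.60, against 3.11 and 3.39, on its other probe set, a difference of 0.40. For these 3 genes, then, the gap of 1 was met on the brighter probe set only, although the lgl arrays also lay above both controls, by less, on the other probe sets of CG12814 and CG42675. CG18507 had 3 probe sets, with differences of 1.51, 1.59 and 0.49, of which the first met the selection as the brightest. Only CG40485 had all its probe sets past the gap. In all, 8 of the 49 genes were read by a probe set of the type that can match several transcripts, CG34166, CG8468 and CG42675 among them, although the annotation gives each a single gene.

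The 49 genes were matched by gene identifier to the RefSeq gene table (Release 6 plus ISO1 MT), which held all of them and served to find their neighbours. Of 98 flanking protein-coding genes 82 had a probe set with a single symbol and the same gene identifier, and the others were not analysed here. Among the 82, 1 (1.22%) met the same gap, against 1.03% of all named genes. It was Pex7, which encodes the receptor for peroxisomal import of PTS2 proteins and lies beside CG13305. PGRP-SA, which flanks CG1572, was among the flanking genes not analysed here, and the paper lists it as higher in lgl mutants. The share above does not cover it. Pex7 read 10.33, 10.19 and 10.25 in the lgl arrays, against 7.74 and 7.50, and CG13305 read 8.53, 8.59 and 8.34, against 6.51 and 6.47, so that both genes of this pair separated the groups with narrow values. The flanking genes as a whole had a median difference of 0.00. In the other direction, CG14566 beside CG14567 read 4.55, 4.52 and 4.54 in the lgl arrays, against 6.64 and 7.41, while CG14567 itself read 7.39, 7.09 and 7.70, against 5.0 and 5.34. CG11000, beside CG42675, was also lower in all lgl arrays, with 5.15, 5.02 and 5.21, against 7.22 and 6.33.

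Among the 49 genes, 3 pairs lay within 20 kb of each other. CG42675 and the sugar transporter gene CG1208 formed one pair, and both had FRT82B array 2 above array 1 by more than 1. The dehydrogenase gene CG17121 and CG17111 formed another, and CG17111 read 5.19, 5.27 and 4.61 in the lgl arrays, against 3.56 and 2.86 in the FRT82B arrays, a difference of 1.81 beside 1.86 for CG17121. CG15347 and CG12116 formed the last pair, and here the array profiles differed: CG15347 read 6.48, 7.0 and 6.39, against 4.30 and 4.86, with lgl array 2 highest, while CG12116 was lowest on lgl array 2. CG17549, whose lgl arrays read 8.10, 8.49 and 8.40, against 6.18 and 6.51 in the FRT82B arrays, lies beside fon, a haemolymph clotting gene. fon read 8.61, 5.82 and 7.85 in the lgl arrays, against 4.30 and 5.25, with the array order of the first pattern, which CG17549 did not share. In 12 of the 49 genes a flanking gene overlapped, and the annotation used here does not tell whether a probe set could read both.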

How the data were processed

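Total RNA of cephalic complexes was hybridised to Affymetrix Drosophila 2.0 arrays. The deposited values are log2 expression per probe set, for which the authors ran background correction and normalisation with the robust multichip average (RMA). Those values were used unchanged. Of 18952 probe sets, 183 control probe sets were left out. Of the other 18769, 13647 had one gene symbol in the platform annotation, 402 several and 4720 none, and only those with one symbol were named. The genes with a symbol starting CG9657 were not considered.

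The fit was limma 3.58.1 (lmFit, eBayes) in R 4.3.3, without covariates, with Benjamini-Hochberg adjustment over all 18769 probe sets. A call needed an adjusted p under 0.05 and a log2 difference of at least 1. Tested on simulated data over 18769 probe sets, the fit recovered 18, 40, 45 and 47 of 50 planted log2 differences of 1, 1.5, 2 and 3, with 3 false calls. The simulation gave both groups the same normal spread per probe set. In the data the FRT82B arrays correlated less with each other than the lgl arrays did. The simulated counts therefore do not give the error rates of the fit in these data. Tables were made with Python 3.11.15, pandas 2.3.3 and numpy 2.4.6.

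The members, the marker lists and the tests were chosen with earlier results of these data known. Named were l(2)gl, the 10 largest differences, up to 6 genes per product class with the largest gaps, the 3 genes on either side of the threshold, genes with a further probe set, the 5 genes with the widest FRT82B and lgl arrays, and neighbouring members. CG40485, the flanking genes, the genes given by range and the profiles most like CG34166 and CG13460 were added after values were seen. So were the salivary gland genes outside the fixed list. Product classes had been planned from annotation keywords, but the tables hold no product names, so 16 of 18 rest on background knowledge. Alternatives were another normalisation, centring, filter, probe set rule, gap and prior, array weights, a replicate block, and leaving out each array. With 3 and 2 arrays, their number limits the precision.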

Additional observations from a re-analysis of the deposited data

How the results depend on the processing

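The gap set how many genes were found: 133 at a gap of at least 0.5, 26 at 1.5 and 9 at 2, against 49 at 1. Leaving out 1 array gave 58 to 157 genes, with 81 without FRT82B array 1 and 157 without FRT82B array 2, and every one of these sets held all 49. Holding all 49 was fixed in advance, since leaving out an array cannot narrow the gap of a probe set. Normalising again by quantiles gave 48 (CG9993 lost), centring gave 51 (CG3704 and CG5835 gained), and averaging the probe sets of a gene gave 46 (CG18507, CG42675 and CG43394 lost). Without the 8 probe sets that can match several transcripts, an alternative chosen after seeing the data, 41 remained. The median difference moved between 1.89 and 2.15, within 1 SD (0.18) of the spread between arrays. The value 1.89, without the 8 genes of wide lgl range, was also chosen after seeing the data. Of 392 recomputed differences of single genes, 0 reversed and 4 moved by over 1 SD. All 4 came from averaging the probe sets of a gene, which could change only the 5 genes with more than one probe set. Leaving out an array could not reverse a difference, since every lgl value of these genes lay above every FRT82B value.

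The limma calls changed far more. The groups share replicate numbers, but the deviations of same-numbered arrays correlated at only 0.0286 and 0.0661, and the numbers were not taken as pairs. Of the 49 genes, 44 were called among brighter probe sets only, 2 with array weights (CG6739 and CG18557) and 0 with the replicate number as a replicate block, where 48 had an unadjusted p under 0.05. Leaving out 1 array gave 0 to 37 calls, and where there were 0, without one lgl array, 47 to 49 had an unadjusted p under 0.05. These unadjusted counts of the 49 genes are largely fixed by the selection. Of all probe sets, 197 were called in either direction. The count was 395 among brighter probe sets only, 12 with array weights and 0 with the replicate block, where 345 higher and 271 lower passed at an unadjusted p under 0.05 with the same fold threshold. Leaving out 1 array gave 0 to 1306, with 71 without FRT82B array 1, 1306 without FRT82B array 2 and 0 without any one lgl array, where 286 to 323 higher and 252 to 274 lower had such an unadjusted p. Where 1 FRT82B array was left, its spread was taken from that of the lgl arrays. The cause was not tested. The planned counts of signal-like N-termini and membrane-like segments were not run, since no protein sequences were used here.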
